A study of Mus musculus with 16 samples.

Results

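Shh, Foxa1, Foxa2, Ferd3l, Ntn1, Spon1 and Corin are 7 genes expressed in the floor plate, the strip of cells along the ventral midline of the neural tube. They were matched by Ensembl identifier among the 54838 genes of the count tables, and all 7 passed the filter on low counts that left 21284 genes for testing. RNA was sequenced from mouse embryos at E10.5 in 16 libraries, 2 in each of 8 groups, to compare genotypes within an anterior and a posterior part of the embryo. The anterior part (Head) was taken above the third branchial arches and the posterior part (Tail) below the forelimbs. In both regions the genotypes were DKO, which carries the Fuz and the Gpr161 knockout together, Gpr161 KO, Fuz KO and WT. The labels give no treatment, and they name no strain, allele design or number of embryos per library. Nor do they tell if the 2 libraries of each group are from different embryos. By the Xist levels given below, those of Gpr161 KO differed in sex and so were not from the same embryo. Each p-value reflects only how far these samples spread, which in the other groups may be technical. Each library holds every cell type of its part of the embryo, and in such bulk samples fewer floor plate cells and less RNA per cell cannot be told apart.

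The notochord beneath the neural tube secretes Sonic hedgehog, and the midline cells above it answer by becoming floor plate, which then makes Shh itself and patterns the ventral neural tube. Foxa2 is a forkhead transcription factor that responds to strong Hedgehog signalling and in turn activates Shh. Gpr161 sits in the primary cilium and keeps Hedgehog target genes low, and Fuz is a planar cell polarity effector needed to build cilia, where the Hedgehog signal is handled in vertebrates.

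The libraries held between 39062489 and 53680317 counts each. The targeted genes fitted the labels: Gpr161 lay between 2.12 and 5.44 CPM (counts scaled to the TMM-adjusted total of the library) in the 8 DKO and Gpr161 KO libraries and between 24.3 and 55.0 CPM in the 8 Fuz KO and WT libraries. Fuz lay between 0.808 and 1.89 CPM in the 8 DKO and Fuz KO libraries and between 4.95 and 9.22 CPM in the 8 Gpr161 KO and WT libraries. The regions also fitted, since 10 posterior Hox genes summed to at most 1.43 CPM in Head libraries and at least 396 CPM in Tail libraries. Some libraries stood apart. The median log2 difference from WT over 16 hypoxia and glycolysis genes was 2.40 in Head DKO 1, 2.98 in Head Fuz KO 1, 1.88 in Tail DKO 1 and 2.45 in Tail Fuz KO 1, against at most 0.61 in the number 2 libraries of those genotypes. Xist, the RNA of the inactive X chromosome, was at most 1.22 CPM in every DKO and Fuz KO library, 0.739 and 0.521 CPM in Gpr161 KO 1, 879 and 977 CPM in Gpr161 KO 2 (Head and Tail), and between 824 and 977 CPM in WT. Taking Xist as the mark, the DKO and Fuz KO libraries were male and the WT libraries female, so genotype and sex cannot be told apart in those pairs but for the 2 sexes among the Gpr161 KO libraries.

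Among the secreted proteins, Shh, the Hedgehog ligand on chromosome 5, had 6.93 and 7.53 CPM in Head DKO, 109 and 149 CPM in Head Gpr161 KO and 2.86 and 6.59 CPM in Head Fuz KO, against 27.1 and 31.5 CPM in Head WT. In the Tail it had 5.63 and 7.99 CPM in DKO, 34.0 and 37.2 CPM in Gpr161 KO and 7.14 and 8.59 CPM in Fuz KO, against 13.5 and 19.3 CPM in WT. In both regions the Gpr161 KO libraries lay above both WT libraries, and the Fuz KO and DKO libraries lay below both. Over the 8 groups the order of Shh means was Head Gpr161 KO, Tail Gpr161 KO, Head WT, Tail WT, Tail Fuz KO, Head DKO, Tail DKO and Head Fuz KO. The first 4 groups did not overlap with their neighbours in that order, while each of the last 4 overlapped with the next.

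Ntn1 on chromosome 11 encodes netrin 1, the secreted cue that draws commissural axons towards the midline. It had 96.6 and 61.2 CPM in Head DKO, 337 and 449 CPM in Head Gpr161 KO and 85.6 and 44.7 CPM in Head Fuz KO, against 57.6 and 96.6 CPM in Head WT. The Tail libraries had 78.5 and 49.0 CPM in DKO, 182 and 198 CPM in Gpr161 KO and 69.1 and 88.2 CPM in Fuz KO, against 82.6 and 117 CPM in WT. Gpr161 KO was highest in each region, and the DKO and Fuz KO libraries of the Head overlapped with Head WT.

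Spon1 on chromosome 7 encodes F-spondin, a secreted matrix protein of the floor plate. It had 38.8 and 25.7 CPM in Head DKO, 342 and 483 CPM in Head Gpr161 KO and 35.4 and 18.0 CPM in Head Fuz KO, against 51.8 and 74.7 CPM in Head WT. The Tail libraries had 44.8 and 29.6 CPM in DKO, 69.0 and 82.2 CPM in Gpr161 KO and 23.5 and 38.4 CPM in Fuz KO, against 26.5 and 58.0 CPM in WT. The gap between Head Gpr161 KO and every other group was wide, whereas the Tail Gpr161 KO libraries lay nearer to those of Tail WT, with no overlap.

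The 3 transcription factors followed. Foxa1 on chromosome 12, a forkhead factor closely related to Foxa2, had 5.87 and 4.14 CPM in Head DKO, 39.1 and 61.4 CPM in Head Gpr161 KO and 5.66 and 4.14 CPM in Head Fuz KO, against 7.90 and 11.9 CPM in Head WT. In the Tail it had 2.45 and 4.11 CPM in DKO, 8.86 and 8.83 CPM in Gpr161 KO and 7.71 and 4.99 CPM in Fuz KO, against 6.46 and 8.69 CPM in WT. Tail Gpr161 KO lay barely above the higher Tail WT library, and Tail DKO was the lowest of the 8 groups.

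Foxa2 on chromosome 2 had 1.41 and 1.61 CPM in Head DKO, 71.1 and 86.0 CPM in Head Gpr161 KO and 2.91 and 1.38 CPM in Head Fuz KO, against 5.20 and 8.92 CPM in Head WT. In the Tail it had 0.924 and 1.21 CPM in DKO, 33.6 and 31.6 CPM in Gpr161 KO and 1.24 and 1.01 CPM in Fuz KO, against 2.97 and 5.67 CPM in WT. In both regions Gpr161 KO lay above both WT libraries, and DKO and Fuz KO lay below both. The ratio of Foxa2 to Foxa1 CPM, which is not corrected for gene length and so is compared between libraries only, was 3.80 and 3.58 in Tail Gpr161 KO and 1.82 and 1.40 in Head Gpr161 KO. It lay between 0.161 and 0.751 in the other 12 libraries.

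Ferd3l on chromosome 12 encodes a bHLH transcription factor of the ventral midline. It had 0.353 and 0.568 CPM in Head DKO, 17.0 and 21.5 CPM in Head Gpr161 KO and 0.727 and 0.357 CPM in Head Fuz KO, against 2.15 and 2.7 CPM in Head WT. The Tail libraries had 0.0693 and 0.137 CPM in DKO, 1.94 and 3.12 CPM in Gpr161 KO and 0.0516 and 0.0741 CPM in Fuz KO, against 0.120 and 0.389 CPM in WT. The Tail values of DKO, Fuz KO and WT rest on 3 and 7, 2 and 3, and 5 and 17 counts. Both Gpr161 KO groups lay above the WT libraries of their region, and within every genotype both Head libraries lay above both Tail libraries.

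The upstream sequence of 4 members, Foxa1, Foxa2, Ferd3l and Corin, was in the RefSeq promoter table used here (build GRCm38.p6), as the 250 bases before the annotated start. Foxa1 and Ferd3l are shown because Foxa1 passed the test in Gpr161 KO in the Head and not in the Tail, while Ferd3l passed in both, and capitals mark motif matches in the strand of the gene. Foxa1 is at chr12:57546112-57546361 (minus strand) and Ferd3l at chr12:33928175-33928424 (plus strand).
Foxa1: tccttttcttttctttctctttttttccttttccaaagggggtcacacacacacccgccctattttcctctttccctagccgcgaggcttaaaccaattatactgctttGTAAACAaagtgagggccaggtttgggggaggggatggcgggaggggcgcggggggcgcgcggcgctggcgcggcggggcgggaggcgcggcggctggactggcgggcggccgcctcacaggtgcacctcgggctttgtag
Ferd3l: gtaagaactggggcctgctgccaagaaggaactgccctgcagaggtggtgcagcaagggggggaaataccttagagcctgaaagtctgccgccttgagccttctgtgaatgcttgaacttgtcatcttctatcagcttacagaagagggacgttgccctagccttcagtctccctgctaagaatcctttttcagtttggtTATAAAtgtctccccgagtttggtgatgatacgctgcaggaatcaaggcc
The capitals in Foxa1 are the reverse complement of TGTTTAC, a forkhead core sequence. Those in Ferd3l are TATAAA, the letters of a TATA box, searched for anywhere in the window. Each motif was searched on both strands, and they were chosen after the sequences were seen. The forkhead core was in 3.17% of 32851 such windows of all genes and TATAAA in 12.4%. The Gli consensus GACCACCCA, found in 0.225% of all windows, was in none of the windows of the 4 genes. These matches describe letters in a window and say nothing about binding.

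Corin on chromosome 5, a membrane-bound serine protease used to mark midline progenitors, had 2.76 and 5.09 CPM in Head DKO, 14.0 and 28.7 CPM in Head Gpr161 KO and 2.67 and 5.90 CPM in Head Fuz KO, against 9.53 and 8.12 CPM in Head WT. The Tail libraries had 2.52 and 2.11 CPM in DKO, 2.11 and 3.36 CPM in Gpr161 KO and 0.903 and 2.54 CPM in Fuz KO, against 2.37 and 3.77 CPM in WT. The Head Gpr161 KO libraries lay above both Head WT libraries but far from each other, and in the Tail each mutant had a library within the range of WT.

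**Figure D1:**
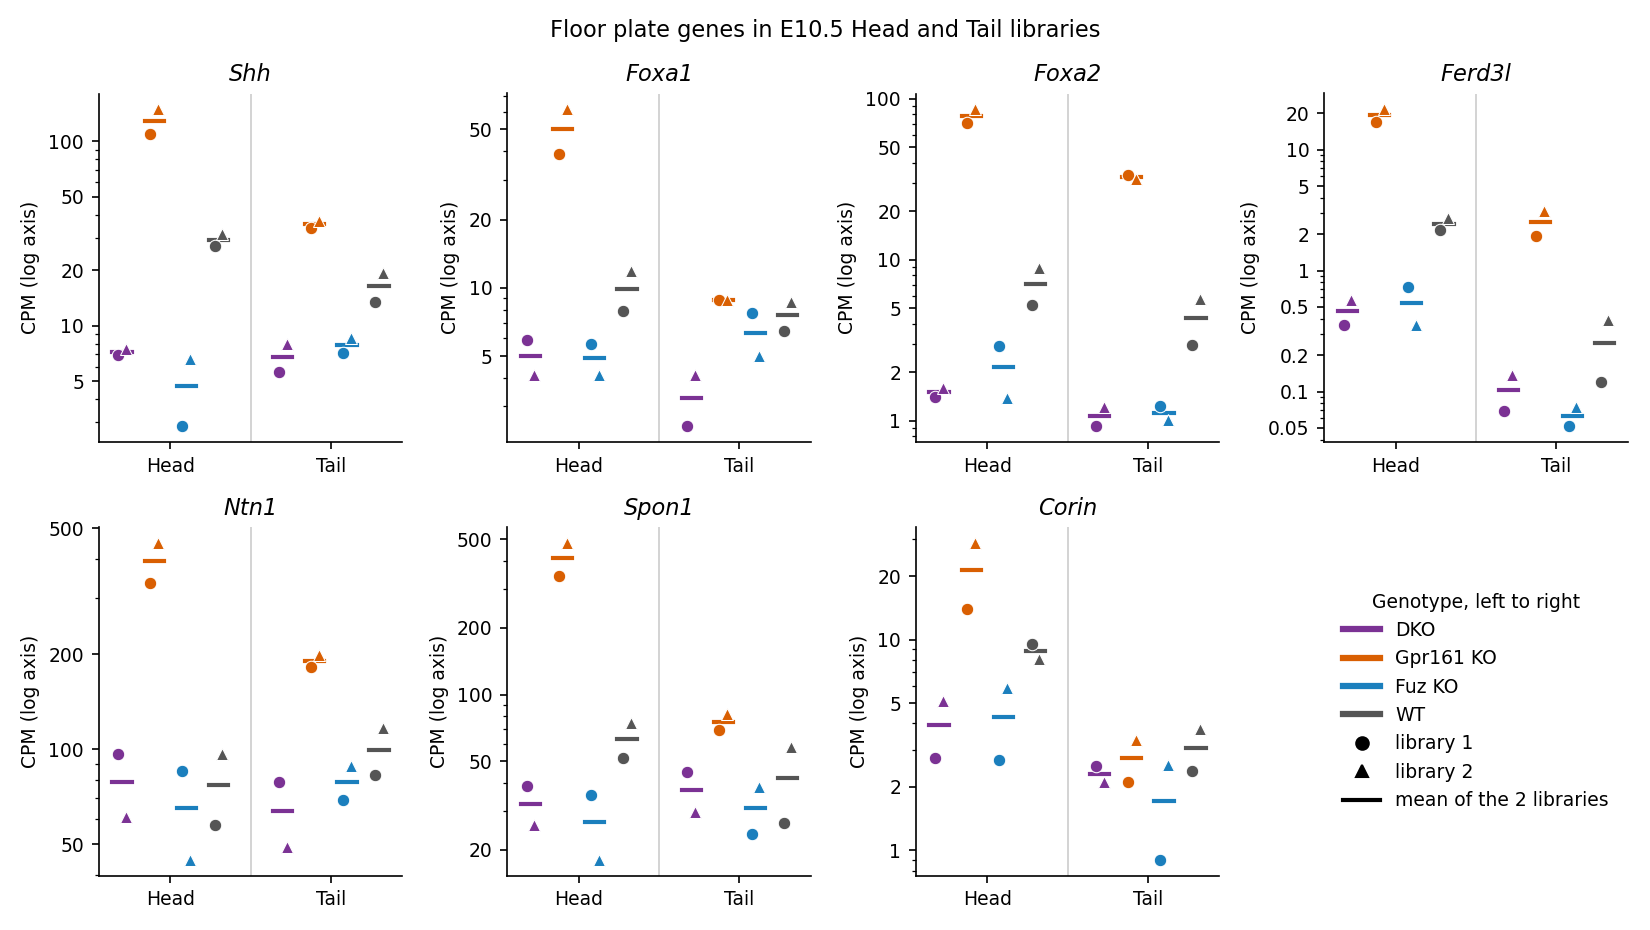
CPM of each floor plate gene in every library (log axis), with Head and Tail side by side and DKO, Gpr161 KO, Fuz KO and WT from left to right in each. Circles and triangles are libraries 1 and 2, and bars are their means. Head Gpr161 KO is the highest group of all 7 genes (Shh 129 CPM on average), while in the Tail Foxa1 averaged 8.85 CPM in Gpr161 KO and 7.58 CPM in WT.

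In Head Gpr161 KO against Head WT, 6 of the 7 floor plate genes were called higher and none lower (edgeR's quasi-likelihood test, Benjamini-Hochberg adjusted p under 0.05), where 1.51% of all genes tested were called higher. Foxa2 rose 11.1-fold (log2 3.48 ± 0.38 SE, adjusted p = 0.000628) and Ferd3l 7.93-fold (log2 2.99 ± 0.46, adjusted p = 0.00579). The secreted Spon1, Ntn1 and Shh rose 6.52-fold, 5.10-fold and 4.42-fold, with adjusted p = 0.0166, 0.0122 and 0.00555. Foxa1 rose 5.08-fold (adjusted p = 0.00454). Corin had a log2 difference of 1.28 ± 0.52 and did not pass (adjusted p = 0.309). All 7 genes had both Gpr161 KO libraries above both WT libraries, which held for 28.4% of all genes, and the members' median log2 difference was 2.35 against 0.01 over all genes. The calls rested on both WT libraries: with 1 of them left out, most members lost their call, and calls over all genes fell as well. Foxa2 kept its call with any 1 of the 4 libraries left out (log2 from 3.115 to 3.895). Foxa1 lost its call only without Head WT 1. Spon1 missed the threshold when any 1 of the 4 libraries was left out (adjusted p from 0.0592 to 0.218).

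In Tail Gpr161 KO against Tail WT, 2 members were called higher and none lower, where 0.0799% of all genes were called higher. They were Foxa2, which rose 7.55-fold (log2 2.92 ± 0.37, adjusted p = 0.00511), and Ferd3l, which rose 9.80-fold (log2 3.29 ± 0.52, adjusted p = 0.0194). The other members had smaller log2 differences that did not pass: Shh 1.12 ± 0.31 (adjusted p = 0.274), Ntn1 0.93 ± 0.37, Spon1 0.84 ± 0.44, Foxa1 0.22 ± 0.33 and Corin -0.17 ± 0.53. Still, 6 of the 7 had both Gpr161 KO libraries above both WT libraries, which held for 22.6% of all genes, and the median was 0.93 against 0.00 over all genes. Ferd3l missed the threshold with each region fitted alone (adjusted p = 0.139), without Tail Gpr161 KO 2 (0.13) and without Tail WT 1 (0.118). Its Tail WT level rests on 5 and 17 counts, and its log2 difference was 2.703 without Tail WT 1 and 4.37 without Tail WT 2.

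In Head Fuz KO against Head WT, Shh was the 1 member called, where 0.0376% of all genes were called lower. It was 6.19-fold lower (log2 -2.63 ± 0.33, adjusted p = 0.0124). The log2 differences of the others were -2.16 ± 0.48 for Ferd3l, -1.72 ± 0.37 for Foxa2, -1.25 ± 0.45 for Spon1, -1.04 ± 0.52 for Corin, -1.01 ± 0.34 for Foxa1 and -0.24 ± 0.37 for Ntn1, and none passed. For 6 of the 7 genes, all but Ntn1, both Fuz KO libraries were below both WT libraries, which held for 17.9% of all genes, and the median was -1.25 against 0.01. Head Fuz KO 1 is one of the libraries high in hypoxia genes, and the sexes of the groups differ. A sex term is estimated only between Gpr161 KO 1 and 2, which also differ in hypoxia genes, so it does not separate sex from genotype here. Without both Fuz KO 1 and both DKO 1 libraries, Shh was at log2 -2.16 (adjusted p = 0.209). It was at -2.34 with sex as a term (adjusted p = 0.531), at -2.75 without Head WT 1 (0.0833), at -2.53 without Head WT 2 (0.146) and at -2.63 with the Head fitted alone (0.147).

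No member was called in Head DKO, Tail DKO or Tail Fuz KO against WT, where 0.0329%, 0.0423% and 0.0094% of all genes were called in either direction. At an unadjusted p under 0.05 the counts were 5, 3 and 3 of the 7 members and 922, 1530 and 1109 of the 21284 genes tested. DESeq2 called 3, 2 and 1 members and 57, 144 and 24 of all genes. In Head DKO the log2 differences were -2.02 ± 0.32 for Shh (adjusted p = 0.0708), -2.22 ± 0.38 for Foxa2 (0.0942) and -2.39 ± 0.49 for Ferd3l (0.239), while Ntn1 was at 0.03 ± 0.37. In 6 of the 7 both Head DKO libraries lay below both WT libraries, which held for 19.1% of all genes. In the Tail, Foxa2 was at -2.01 ± 0.39 in DKO (adjusted p = 0.189) and -1.94 ± 0.39 in Fuz KO (0.557), and Shh at -1.27 ± 0.32 in DKO and -1.06 ± 0.32 in Fuz KO. The groups did not overlap with WT for 4 members in Tail DKO and 3 in Tail Fuz KO, all lower, against 20.8% and 18.0% of all genes. Foxa1, Ntn1, Spon1 and Corin each had a Tail Fuz KO library within the range of Tail WT. Without the number 1 DKO and Fuz KO libraries, and likewise with sex as a term, these 3 counts were 0 as well. The 3 comparisons with WT in a region share its 2 WT libraries.

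**Figure D2:**
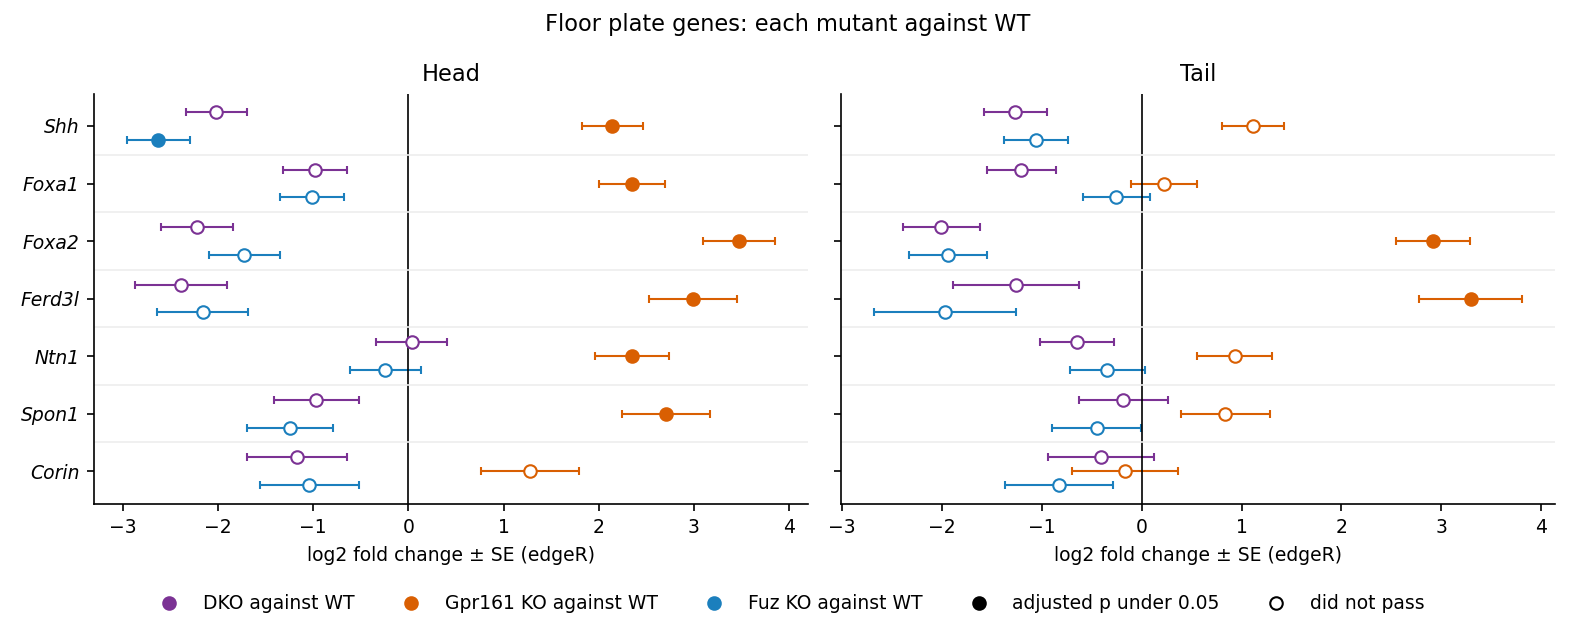
Log2 fold change of each floor plate gene in DKO, Gpr161 KO and Fuz KO against WT of the same region, with bars of 1 SE from edgeR. Filled points passed an adjusted p of 0.05. The 6 filled Head Gpr161 KO points run from 2.14 (Shh) to 3.48 (Foxa2), and in the Tail only the Foxa2 and Ferd3l points of Gpr161 KO are filled.

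In Head DKO against Head Gpr161 KO, the pair that asks what loss of Fuz does where Gpr161 is missing, all 7 genes were called lower, where 3.13% of all genes were. Foxa2 was 51.9-fold lower (log2 -5.70 ± 0.43, adjusted p = 1.98e-05), Ferd3l 41.6-fold lower (log2 -5.38 ± 0.53, adjusted p = 0.00014) and Shh 17.9-fold lower (log2 -4.16 ± 0.35, adjusted p = 6.87e-05). Spon1, Foxa1, Corin and Ntn1 were 12.8-fold, 10.0-fold, 5.45-fold and 4.98-fold lower. No library of the 2 groups overlapped for any member, which held in this direction for 25.8% of all genes. Every member stayed called without the number 1 DKO and Fuz KO libraries, which leaves 1 library in Head DKO. More of all genes passed in that fit than with all libraries. With sex as a term Corin did not pass (adjusted p = 0.0967). With 1 of these 4 libraries left out, a group held 1 library and fewer of all genes passed. Corin missed the threshold without Head DKO 1 (adjusted p = 0.210), without Head DKO 2 (0.0804) and without Head Gpr161 KO 2 (0.196), and Ntn1 without Head DKO 2 (0.0886) and without Head Gpr161 KO 2 (0.059). The other 5 genes passed each time.

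In Tail DKO against Tail Gpr161 KO, 3 members were called lower, where 0.371% of all genes were. Foxa2 was 30.4-fold lower (log2 -4.92 ± 0.42, adjusted p = 0.000106), Shh 5.21-fold lower (log2 -2.38 ± 0.33, adjusted p = 0.0076) and Ferd3l lower by log2 -4.55 ± 0.57 (adjusted p = 0.00394). For Ferd3l, with 10 counts in the DKO libraries and 203 in the Gpr161 KO libraries, the ratio of levels was 0.0422 (95% interval 0.01995 to 0.0793, counting error only). Ntn1, Foxa1 and Spon1 had log2 differences of -1.58 ± 0.38, -1.43 ± 0.34 and -1.02 ± 0.45 and did not pass (adjusted p = 0.104, 0.0895 and 0.388), and Corin was at -0.24 ± 0.53. All but Corin had both DKO libraries below both Gpr161 KO libraries, which held for 23.0% of all genes. Foxa2, Shh and Ferd3l stayed called without the number 1 DKO and Fuz KO libraries, which leaves 1 library in Tail DKO, and more of all genes passed. Without Tail DKO 1 or without Tail DKO 2, Shh and Ferd3l lost their call and Foxa2 kept it. Calls over all genes fell in those fits as well. Shh also missed the threshold without Tail Gpr161 KO 2 (adjusted p = 0.0725).

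In DKO against Fuz KO, no member was called in the Head or the Tail, where 0.0282% and 0.0329% of all genes were called. The counts at an unadjusted p under 0.05 were 0 and 1 of the 7 members and 616 and 786 of all genes, and DESeq2 called 0 members in both and 12 and 25 of all genes. With the replicate number as a block, 0 members and 8 and 7 of all genes were called. The members' median log2 difference was 0.03 in the Head and -0.07 in the Tail. Shh was at 0.61 ± 0.32 in the Head, with both DKO libraries above both Fuz KO libraries (10.3% of all genes), and at -0.21 ± 0.32 in the Tail. Without Head Fuz KO 2, the only library left in its group was Head Fuz KO 1, which is high in hypoxia genes. Shh in the Head was then at 1.36 and passed, but far more of all genes passed as well. Foxa1 in the Tail was at -0.95 ± 0.34 (unadjusted p = 0.0159, adjusted p = 1), with both DKO libraries below both Fuz KO libraries (13.7% of all genes). With 2 libraries a group, a missed threshold does not show that the levels were the same.

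**Figure D3:**
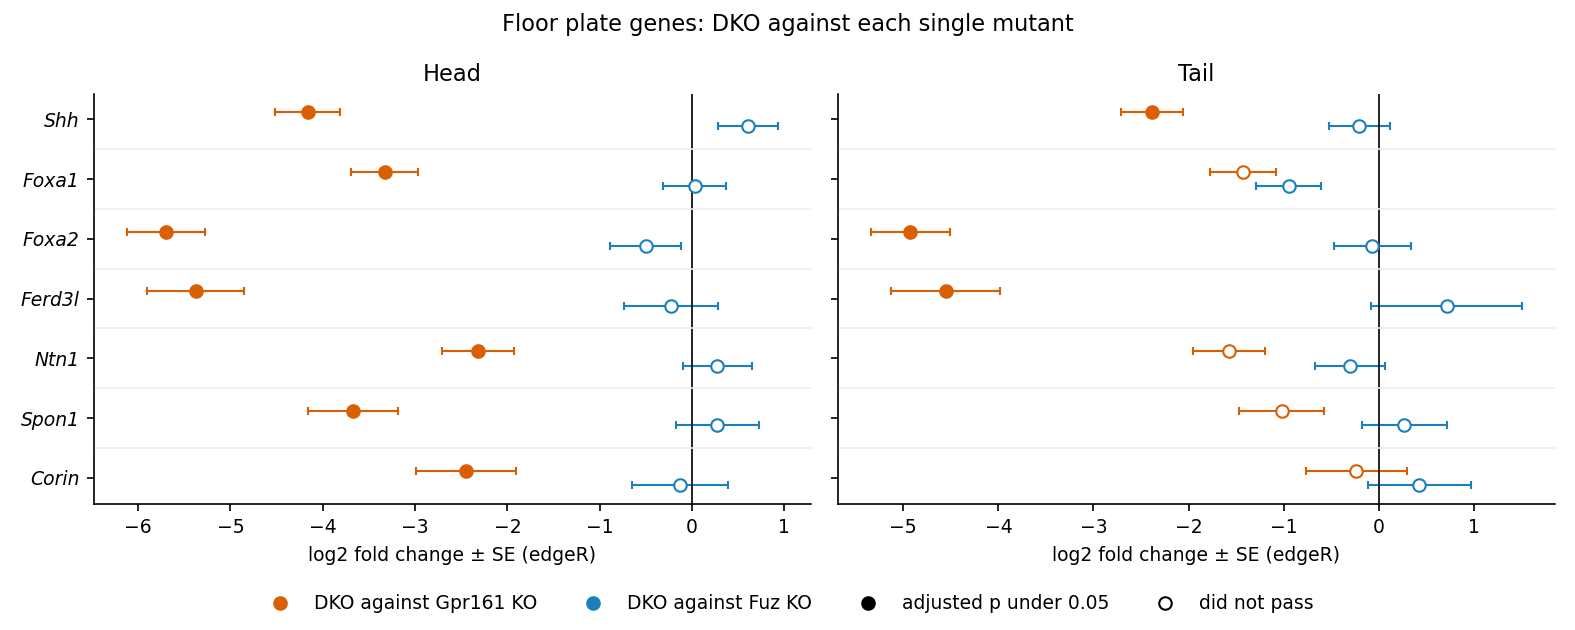
Log2 fold change of each floor plate gene in DKO against Gpr161 KO and against Fuz KO in the same region, with bars of 1 SE from edgeR. Filled points passed an adjusted p of 0.05. Against Gpr161 KO the Head points run from -2.32 (Ntn1) to -5.70 (Foxa2), and against Fuz KO the points lie between -0.95 (Foxa1, Tail) and 0.71 (Ferd3l, Tail).

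The difference between the regions in the Gpr161 KO effect (Head minus Tail) was tested directly. No member was called, where 0.094% of all genes were called in either direction, although 4 of the 7 and 1119 of the 21284 genes had an unadjusted p under 0.05. DESeq2 called 1 member and 227 of all genes. Foxa1 had the largest difference (log2 2.12 ± 0.47, adjusted p = 0.136), followed by Spon1 at 1.87 ± 0.63, Corin at 1.45 ± 0.74, Ntn1 at 1.42 ± 0.53 and Shh at 1.03 ± 0.43. Foxa2 was at 0.56 ± 0.49 and Ferd3l at -0.30 ± 0.64. The same contrast was fitted with genotype and number as a block, on the assumption that the number pairs Head and Tail libraries of a genotype. Their shared variation was weak (r from 0.133 to 0.437) and overlapped with that between genotypes (up to 0.302). With the block Foxa1 passed (log2 2.10, edgeR adjusted p = 0.0198), where 217 of all genes were called with the block and 20 without it. For the Fuz KO and DKO effects no member and no gene of the 21284 was called (0%). There 1 and 0 members had an unadjusted p under 0.05, and DESeq2 called 0 members in both. With the block 0 members were called in both, and 1 and 19 of all genes. Head Shh was lower relative to the Tail by log2 -1.57 ± 0.45 in the Fuz KO effect (unadjusted p = 0.00416, adjusted p = 1). Without Head Fuz KO 2 this difference was -2.36 and passed. That fit rested on Head Fuz KO 1 alone for its group, and more of all genes passed in it as well.

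In Head WT against Tail WT, Ferd3l was the 1 member called, 9.39-fold higher (log2 3.23 ± 0.52, adjusted p = 0.00284), where 2.02% of all genes were called higher. It rests on 5 and 17 counts in Tail WT: the log2 difference was 2.66 without Tail WT 1 (adjusted p = 0.0362) and 4.32 without Tail WT 2 (0.00362). Shh, Ferd3l and Corin had both Head libraries above both Tail libraries, which held for 24.8% of all genes. With the block of genotype and number 1100 of the 21284 genes were called higher, against 431 without it, and 4 members passed: Ferd3l, Corin (log2 1.55, adjusted p = 0.00428), Shh (0.85, adjusted p = 0.0159) and Foxa2 (0.73, adjusted p = 0.0171). Without the block the adjusted p of these 3 was 0.174, 0.211 and 0.427. For WT, the differences between numbers 1 and 2 correlated between Head and Tail at only r = 0.133, and between genotypes at up to 0.302. Ntn1 was at -0.37 ± 0.37. The ratio of Head to Tail mean CPM of Ferd3l was 4.47 in DKO, 7.60 in Gpr161 KO, 8.62 in Fuz KO and 9.54 in WT. Foxa1 had ratios of 1.53 in DKO, 5.68 in Gpr161 KO, 0.772 in Fuz KO and 1.30 in WT.

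Of 10 other floor plate genes, 4 were called higher and none lower in Head Gpr161 KO against Head WT: Sulf1, an extracellular sulfatase (615 CPM in Gpr161 KO and 202 CPM in WT on average, log2 1.61 ± 0.16), Slit3 (91.2 and 33.5 CPM, 1.45 ± 0.18), Slit2 (282 and 92.5 CPM, 1.61 ± 0.25) and Slit1 (179 and 26.1 CPM, 2.78 ± 0.46). The Slit proteins are secreted midline repellents of axons. The median of the 10 was 1.53. Sulf1 and Slit3 stayed called with any 1 of these 4 libraries left out, whereas Slit1 and Slit2 passed only without Head Gpr161 KO 1. In the Tail Slit3 was called higher (74.0 CPM in Gpr161 KO and 36.9 CPM in WT, log2 1.00 ± 0.17), and the median was 0.83. None was called in DKO or Fuz KO against WT in either region. In Head DKO against Head Gpr161 KO 5 were called lower, with Sulf1 at -2.13 ± 0.16 and Slit1 at -3.42 ± 0.48, and in the Tail 3 were, Wnt5a, Slit1 and Slit3.

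The receptors of netrin and Slit were also counted: of 10, none was called by edgeR in any mutant against WT, with 3 at an unadjusted p under 0.05 in Head Gpr161 KO and 8 in Tail Gpr161 KO. The one with the largest difference in Head Gpr161 KO was Robo3, at log2 -1.59 (adjusted p = 0.537), and in Tail Gpr161 KO it was again Robo3, at -4.36 (adjusted p = 0.276). Robo2, a Slit receptor, was called lower in Head DKO against Head Gpr161 KO (23.5 CPM in DKO and 52.4 CPM in Gpr161 KO).

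Of 17 Hedgehog target and feedback genes, 6 were called higher in Head Gpr161 KO and 5 in Tail Gpr161 KO, with none lower. Ptch1, the Hedgehog receptor, was at log2 1.70 ± 0.26 in the Head and 1.89 ± 0.26 in the Tail. Gli1, a transcription factor and common readout of the pathway, was at 1.08 ± 0.18 in the Head and 1.54 ± 0.18 in the Tail, and in the Head it missed the threshold with any 1 library left out (adjusted p from 0.0509 to 0.169). In the difference between the regions in the Gpr161 KO effect none of the 17 was called, 0 had an unadjusted p under 0.05, and the median was 0.01. The median was 1.42 over the 7 floor plate genes and 0.64 over the 10 other floor plate genes, with none called in either. At an unadjusted p under 0.05 there were 4 of the 7 and 3 of the 10. Head Fuz KO had 3 called lower, Gli1 (-1.59 ± 0.19), Foxl1 and Foxf2, Head DKO had 1, Foxl1 (-3.34 ± 0.42), and the Tail had none. Against Gpr161 KO, Head DKO had 11 and Tail DKO 5 called lower. Of 16 genes of Hedgehog ligand, release and reception, 5 were called lower in Head Gpr161 KO, among them the co-receptors Gas1 (-1.92 ± 0.17), Boc (-1.63 ± 0.23) and Cdon (-0.96 ± 0.17) and Gpr161 itself.

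The rest of the ventral neural tube was read from 11 progenitor genes. None was called higher in Gpr161 KO, while Pax6, a transcription factor of more dorsal progenitors, was called lower in both regions (3.70 CPM in Gpr161 KO and 73.2 CPM in WT in the Head, 4.25 and 31.0 CPM in the Tail) and Dbx2 in the Tail (log2 -5.68 ± 0.98). The 11 summed to 248 and 252 CPM in Head Gpr161 KO and 234 and 251 CPM in Head WT. This sum includes the fall of Pax6, so the others of the 11 rose in summed CPM. A sum is led by the most abundant genes, and the median log2 difference over the 11 was -0.47 in Head Gpr161 KO against WT. It was 0.69 in Tail Gpr161 KO against WT. In Head Gpr161 KO 6 of the 11 had an unadjusted p under 0.05, and in Tail Gpr161 KO 7. Of 8 pan-neural progenitor genes, Pax6 was again the one called, and the 8 summed to 933 and 1136 CPM in Head Gpr161 KO and 1289 and 1314 CPM in Head WT. Of 11 genes of the midbrain dopaminergic lineage, which arises from floor plate, Ddc was called higher (log2 1.32 ± 0.30) and Msx1 lower (log2 -1.96 ± 0.25) in Head Gpr161 KO. Of 10 posterior limb bud and cloaca genes, tissues where Shh is also made, none was called in Tail Gpr161 KO, with 4 at an unadjusted p under 0.05 and a median of 0.08.

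Foxa1, Foxa2 and Shh are also expressed in notochord and gut endoderm. In the Head, the notochord gene Tbxt was at most 0.675 CPM in every library and Noto at most 0.156 CPM, and the endoderm genes Foxa3 and Cdx2 were at most 0.338 and 0.282 CPM. Foxa3 was at 0 in both Head WT libraries, and Cdx2 in 5 of 8 Head libraries. In the Tail, Tbxt had 16.5 and 14.7 CPM in DKO, 78.6 and 42.4 CPM in Gpr161 KO and 55.6 and 27.7 CPM in Fuz KO, against 20.8 and 36.1 CPM in WT, and was not called in Gpr161 KO (log2 1.09, adjusted p = 0.722). Cdx2 had 49.9 and 16.3 CPM in Tail Gpr161 KO and 10.6 and 13.2 CPM in Tail WT. The 12 notochord markers summed to 728 and 544 CPM in Tail DKO, 823 and 455 CPM in Tail Gpr161 KO and 648 and 342 CPM in Tail Fuz KO, against 353 and 305 CPM in Tail WT, with none called in Gpr161 KO by edgeR and 3 at an unadjusted p under 0.05. The sums of Tail DKO and Tail Gpr161 KO lay above both WT libraries, and those of Tail Fuz KO overlapped with WT. Tbxt in Tail DKO, however, lay below both WT libraries. The median log2 difference from WT over the 12 was 0.13 and -0.32 in Tail DKO, 0.70 and 0.36 in Tail Gpr161 KO and 0.68 and 0.04 in Tail Fuz KO. In the Head the 12 summed to 389 and 287 CPM in DKO, 454 and 383 CPM in Gpr161 KO and 463 and 224 CPM in Fuz KO, against 280.1 and 256 CPM in WT, and none was called by edgeR in Head Gpr161 KO, with 2 at an unadjusted p under 0.05. The 17 endoderm markers summed to 245.3 and 200.02 CPM in Tail Gpr161 KO and 232 and 173 CPM in Tail WT, and to 274 and 231 CPM in Head Gpr161 KO and 181 and 169 CPM in Head WT, where Cdh1 alone was called. The part of these cells in the Head and Tail values was not tested.

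Other lists moved with Head Gpr161 KO as well. The 14 cardiomyocyte markers summed to 2533 and 538 CPM in Head Gpr161 KO and 11.0 and 13.0 CPM in Head WT, with 10 called higher. Myh6 had 326 and 55.9 CPM in Head Gpr161 KO and 0.471 and 0.329 CPM in Head WT, and Nppa had 19.5 and 0.349 CPM in Head Gpr161 KO and was at 0 in both Head WT libraries. The library with the lower sum, Head Gpr161 KO 2, had the higher level of all 7 floor plate genes. These 2 libraries also differed in sex by Xist and in their hypoxia genes. Of 8 ventral forebrain markers 2 were called higher, Sim1 and Nkx2-4, while the 8 summed to 215 and 167 CPM in Head Gpr161 KO and 165 and 158 CPM in Head WT. Nkx2-1, which marks ventral forebrain where Shh is made, had 45.4 and 42.7 CPM in Head Gpr161 KO and 21.2 and 21.9 CPM in Head WT. The hypoxia list stood at a median log2 difference of 1.43 and 0.69 in the 2 Head Gpr161 KO libraries. The part of any of these in the floor plate values was not tested.

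**Figure D4:**
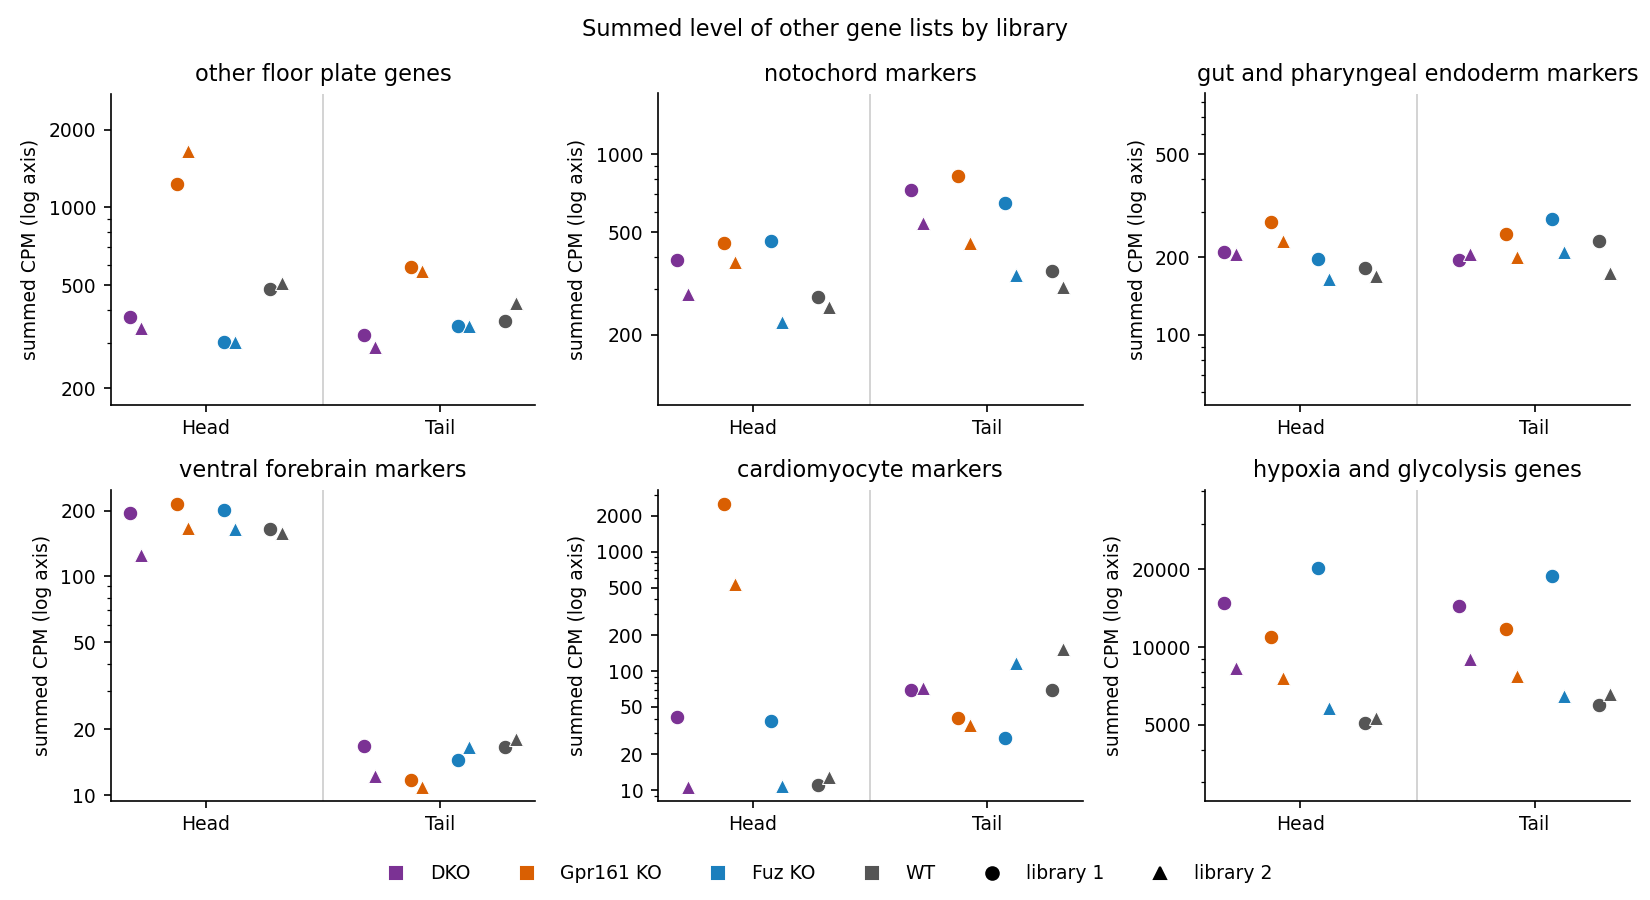
Summed CPM of 6 other gene lists in every library (log axes), with DKO, Gpr161 KO, Fuz KO and WT from left to right in Head and Tail. Circles and triangles are libraries 1 and 2. The other floor plate genes summed to 1234 and 1654 CPM in Head Gpr161 KO and 482 and 510 CPM in Head WT, and the hypoxia and glycolysis genes were highest in Fuz KO 1 of each region.

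The genes most like each member across the 16 libraries were sought among 13218 protein-coding genes with a mean of at least 1 CPM, by Pearson's r of log2 CPM. The libraries share genotype and region, and the Gpr161 KO libraries lie apart, so r describes mostly the group means. For Shh they were Lgi3 (r = 0.95), Foxl1 (0.93) and Habp4 (0.93). Foxa2 was most like Slit1 (0.95), Necap2 (0.94) and Nkx2-9 (0.94), and Ntn1 most like Slit1 (0.96), Plec (0.93) and Fbrs (0.92). Spon1 was most like Tmtc1 (0.94), Slit2 (0.92) and Sel1l (0.92). For Ferd3l they were Metrnl, Ubl3 and Ntng1 (0.97, 0.96 and 0.94), for Corin Thbd, Reep5 and Tppp3 (0.97, 0.96 and 0.95), and for Foxa1 Dnah11, Sirpa and Ttc6 (0.93, 0.92 and 0.92). Between the members themselves r ran from 0.69 to 0.99 over the 8 Head libraries and from 0.00 (Foxa1 and Corin) to 0.98 over the 8 Tail libraries.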

How the data were processed

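Poly-A selected RNA was sequenced from NEBNext Ultra libraries, per the labels' protocols. The deposited values are raw read counts per Ensembl gene. The submitters' processing notes name STAR 2.7.1a, featureCounts 1.6.0, HTSeq and other tools and the build GRCm39. The tool that made the counts and the strand it used are not given in these sources. Names, biotypes and overlaps came from GENCODE vM21, and 115 of 54838 identifiers matched no symbol.

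Low counts were removed with filterByExpr, and 21284 genes from all 16 libraries were modelled together by group in edgeR 4.0.16 (R 4.3.3) with TMM factors and robust quasi-likelihood tests. There were 8 residual degrees of freedom. Benjamini-Hochberg adjustment covered every gene tested in a comparison, with a threshold of 0.05, and the SE was taken from the F statistic. The script was tested on simulated data. The members, 15 gene lists and 14 comparisons were chosen with earlier results of these data known. Genes outside the members are up to 4 called genes of a list by adjusted p, or its largest difference where none was called. Those named from a list for their level, and Cdon, Nkx2-1, Nppa, Gm40383 and Gm26894, were chosen for their role or after their values were seen.

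The 2 libraries of a group had r from 0.961 to 0.983 across genes, and their counts differed beyond sampling noise (chi-square per degree of freedom from 9.41 to 157). As a check of pairing, differences between numbers 1 and 2 correlated between Head and Tail within each genotype (4 pairs, r from 0.133 to 0.437), so the number was treated as pairing regions of a genotype. Between genotypes r ran from -0.0787 to 0.302, and no pairing was assumed. The 2 ranges overlap, so the pairing within a genotype is an assumption that the check does not settle. The 4 pairs of DKO with Fuz KO had r from 0.205 to 0.302, and number 1 of both is high in hypoxia genes. The alternatives were RLE scaling, no filter, a filter of 5 CPM in 2 libraries, a replicate block, sex as a term, each region alone, DESeq2 1.42.0 and libraries left out. Only the Gpr161 KO groups held both sexes by Xist, so the sex term was estimated from them alone and cannot separate sex from genotype elsewhere.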

Additional observations from a re-analysis of the deposited data

How the results depend on the processing

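Values of single genes were recomputed for all 7 genes in 10 comparisons, for Shh in DKO against Fuz KO and in the regional differences of the Fuz KO and DKO effects, and for Foxa1 in Tail DKO against Tail Fuz KO. Of these, 492 of 556 values under other settings kept their direction and their side of the threshold, 51 newly passed it, 5 lost it and 8 changed sign. With 1 library left out, these counts were 293, 2, 26 and 15 of 336. Unless stated, the cause of a change was not tested.

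Without the filter on low counts, the number of members called was 5 in Head Fuz KO, 6 in Head DKO, 2 in Tail Fuz KO, 5 in Tail Gpr161 KO and 4 in Tail DKO, each against WT. It was also 6 in Tail DKO against Tail Gpr161 KO, 1 and 4 in the Head minus Tail differences of the Fuz KO and Gpr161 KO effects, and 4 in Head WT against Tail WT. In the same order, 780, 432, 519, 802, 481, 794, 70, 439 and 1688 of the 42241 genes were then called, against 10, 7, 2, 65, 9, 111, 0, 20 and 802 of 21284 with the filter. DESeq2 called 3 in Head Fuz KO, 3 in Head DKO, 1 in Tail Fuz KO and 2 in Tail DKO against WT, 5 in Tail DKO against Tail Gpr161 KO, 1 in the regional difference of the Gpr161 KO effect and 2 in Head WT against Tail WT. In that order it called 49, 57, 24, 144, 718, 227 and 1413 of all genes. Head Fuz KO had 0 with sex as a term, 0 with each region fitted alone and 0 without both Fuz KO 1 and both DKO 1 libraries, and Tail Gpr161 KO had 1 with each region fitted alone. The replicate block gave 1 in Head DKO, 1 in Tail DKO, 1 in the regional difference of the Gpr161 KO effect and 4 in Head WT against Tail WT, and moved no other count of members by more than 1.5 times.

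With 1 library left out, 1 group held 1 library, and in several of these fits calls of members moved together with calls over all genes. Against WT, both fell in Head Fuz KO without Head WT 1 or 2. Both also fell in Head Gpr161 KO, most without Head WT 1 or 2, and in Tail Gpr161 KO without Tail Gpr161 KO 2 or Tail WT 1. In Tail DKO against Tail Gpr161 KO both fell without Tail DKO 1 or 2. Without Head Fuz KO 2, both rose in Head DKO against Head Fuz KO and in the regional difference of the Fuz KO effect. They did not always move together. In Head Fuz KO against Head WT without Head Fuz KO 2, far more of all genes passed, but no further member did. In Head WT against Tail WT, calls over all genes fell with any 1 library left out, while Ferd3l stayed the only member called.

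None of the values that changed sign had passed the test. With sex as a term, the log2 difference from WT was 0.029 for Ntn1 in Head Fuz KO, 0.072 for Foxa1 and 0.030 for Corin in Tail Fuz KO, 0.22 for Corin in Tail Gpr161 KO, and 0.19 for Spon1 and 0.45 for Corin in Tail DKO, and Corin was at 0.23 in Tail DKO against Tail Gpr161 KO. Ntn1 in Head DKO was at -0.36 without both Fuz KO 1 and both DKO 1 libraries. With 1 library left out, Ntn1 ran from -0.78 to 0.16 in Head Fuz KO and from -0.35 to 0.44 in Head DKO, Foxa1 from -0.61 to 0.028 and Spon1 from -0.88 to 0.23 in Tail Fuz KO, Corin from -0.54 to 0.20 in Tail Gpr161 KO, and Spon1 from -0.62 to 0.49 in Tail DKO. Shh ran from -0.48 to 0.023 in Tail DKO against Tail Fuz KO, and Corin from -0.53 to 0.14 in Tail DKO against Tail Gpr161 KO. In the regional difference of the Gpr161 KO effect, Foxa2 ran from -0.0027 to 0.97 and Ferd3l from -1.40 to 0.26. Depth limits Ferd3l in the Tail, where DKO, Fuz KO and WT had at most 17 counts in a library.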

Other observations

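Genes of the annotation whose exons overlap those of a member were looked up, because reads of overlapping genes cannot be told apart without a stated strand setting. Gm40383, a long noncoding RNA gene that starts beside Ferd3l on the opposite strand and shares 32 exon bases with it, had 0.259 and 0.260 CPM in Head DKO, 4.14 and 5.00 CPM in Head Gpr161 KO and 0.260 and 0.190 CPM in Head Fuz KO, against 0.942 and 0.868 CPM in Head WT. In the Tail it had 31 and 39 counts in Gpr161 KO, against 1 and 14 counts in WT. Its log2 difference was 2.33 ± 0.65 in Head Gpr161 KO against WT (edgeR, adjusted p = 0.0976) and -4.12 ± 0.73 in Head DKO against Head Gpr161 KO (adjusted p = 0.00717). Gm26894, on the opposite strand to Shh with 361 shared exon bases, had 23 and 54 counts in Head Gpr161 KO and 2 and 6 counts in Head WT. No other overlapping gene with shared exon bases passed 14 counts in a library.

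The libraries of a group did not always rank alike over the 7 genes. Head Fuz KO 1 was lower than Head Fuz KO 2 for Shh (log2 difference from the WT mean -3.33 and -2.14) and Corin (-1.70 and -0.57) and higher for the other 5, for example Spon1 (-0.81 and -1.78). The 7 genes summed to 136 and 81.1 CPM in Head Fuz KO and 161 and 234 CPM in Head WT. In Head Gpr161 KO library 2 was above library 1 for all 7.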
